A study of Mus musculus with 21 samples.

Results

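The Nr4a family comprises Nr4a1 (Nur77), Nr4a2 (Nurr1) and Nr4a3 (Nor1), which were picked by name from the 47643 genes of the count table, and all 3 members were found. Counts came from 3' mRNA libraries (QuantSeq) of CD4+ T cells from the spleen. The 21 libraries fall into 7 groups of 3 mice. Every mouse, controls included, carried the Tg4 transgene, which encodes a receptor that recognizes a peptide of myelin basic protein (MBP), the Nr4a3-Tocky reporter and the Il10-GFP (Tiger) reporter. The controls were untreated. The 6 other groups received [4Y] MBP peptide under the skin at 0.8 µg or 80 µg and were sampled 4 h, 12 h or 24 h later. Ages are not given in the sources used here, and mice of both sexes were used in the study.

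The Nr4a3-Tocky reporter makes a fluorescent Timer protein under Nr4a3 regulatory sequence, which emits blue when new and red when mature. The study's methods give the gate as Blue+Red- for the 4 h cells, Blue+Red+ for those taken at 12 h and Blue-Red+ for those of 24 h, and the gate of the control is not given in the sources used here. Nr4a3 therefore served to choose the cells, so its differences from the control and between times are given as a description of the sorted populations. Time and gate cannot be told apart for any member. Within a time, both doses were sorted through the same gate, and the comparison of doses is the one in which cells at the same Timer stage were set side by side. That gate rests on the Nr4a3 reporter, so the Nr4a3 values of both doses come from cells chosen by it. The part of this choice in the Nr4a3 dose differences was not tested. Whether the reporter transcript shares 3' sequence with Nr4a3, and so adds to its count, is not given in the sources used here. In these bulk samples, fewer cells of a type and less RNA per cell cannot be told apart.

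NR4A proteins are orphan nuclear receptors: they have the zinc finger DNA-binding domain of the family but need no bound hormone to act, and their activity is set largely by how much protein is made. They bind, as monomers, a response element named NBRE. Their genes are immediate early genes, transcribed within minutes of T cell receptor engagement without new protein synthesis, through calcium, NFAT, MEF2 and CREB family factors. In T cells, NR4A proteins are known for roles in deletion of self-reactive thymocytes, in regulatory T cells, and in tolerance and exhaustion.

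The members lie on separate chromosomes, and no annotated gene overlaps any of them (GENCODE vM21, GRCm38). Nr4a1 spans chr15:101254269-101274795 on the plus strand, Nr4a2 spans chr2:57106830-57124003 on the minus strand, and Nr4a3 spans chr4:48045153-48086447 on the plus strand. Their nearest annotated neighbors are Atg101 at 9477 bp, BB557941 at 3476 bp and Stx17 at 38468 bp, respectively.

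The stretches upstream of the transcription start are shown because all 3 hold repeats of the core of the cAMP response element (CRE), the site of CREB family factors. The sequences are from RefSeq on GRCm38.p6, at chr15:101266596-101266845 for Nr4a1, chr2:57124004-57124253 for Nr4a2 (minus strand) and chr4:48045055-48045152 for Nr4a3. They are written 5′ to 3′ along the gene, and capitals mark the CRE core TGACG on either strand.
Nr4a1 promoter: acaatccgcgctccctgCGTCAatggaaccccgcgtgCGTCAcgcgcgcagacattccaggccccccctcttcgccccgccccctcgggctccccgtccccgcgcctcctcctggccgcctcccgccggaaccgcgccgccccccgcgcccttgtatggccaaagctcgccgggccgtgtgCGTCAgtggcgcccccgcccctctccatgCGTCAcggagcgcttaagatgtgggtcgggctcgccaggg
Nr4a2 promoter: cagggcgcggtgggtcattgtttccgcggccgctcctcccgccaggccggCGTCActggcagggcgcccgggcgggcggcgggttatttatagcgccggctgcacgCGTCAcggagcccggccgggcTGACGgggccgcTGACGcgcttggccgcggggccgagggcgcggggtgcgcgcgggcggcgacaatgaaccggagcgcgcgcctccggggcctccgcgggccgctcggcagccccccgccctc
Nr4a3 promoter: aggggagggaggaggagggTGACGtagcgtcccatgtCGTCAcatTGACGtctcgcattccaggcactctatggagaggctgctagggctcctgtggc

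Each member had 4 CRE cores in the 250 bases upstream of its RefSeq start. The printed Nr4a3 stretch ends where an annotated exon begins, and it holds 3 of that gene's 4. Among 32817 promoters of the same length, 17.7% held at least 1 core and 0.137% held 4 or more. Among the 9171 promoters with a GC content of at least 60%, the shares were 27.1% and 0.371%. The full CRE (TGACGTCA, which contains the core and was found in 1.55% of all promoters), the AP-1 site (TGANTCA, 6.75%), the NR4A element NBRE (AAAGGTCA, 1.34%) and the serum response element (CArG box, 1.47%) had no match in these stretches on either strand. The NFAT core (GGAAA, 55.6% of all promoters) and a MEF2 site (2.92%) each matched at 1 place in the Nr4a2 stretch. A match of letters is a description of the sequence, not a bound site. The CRE core was marked because of its repeats in these stretches, so the shares beside its counts are a description and not a test.

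Library totals ranged from 2352800 to 6244279 counts, and the same gene, Gm42418, took the largest share of every library (17.0% to 27.8%). T cell markers were present in all libraries, with a summed level over 9 genes of 4041 to 4266 CPM (counts per 1e+06 counts of the library) in the controls, 1789 to 2434 CPM in the groups of 4 h and 12 h, and 3416 to 3912 CPM in those of 24 h. The summed levels of 5 markers each were 1.45 to 71.7 CPM for B cells, 2.08 to 32.0 for myeloid cells, 0 to 2.66 for dendritic cells, 16.4 to 75.3 for NK and CD8 T cells, and 5.31 to 211 for red cells. The dendritic cell marker Clec9a had 0 counts in all libraries. B cell markers summed to 34.9 to 71.7 CPM in the controls. Between doses, the summed levels did not overlap in the following cases. At 4 h the T cell markers (2081 to 2147 CPM at 80 µg, 2273 to 2434 at 0.8 µg) and the myeloid markers (2.08 to 6.67 against 10.04 to 29.0) were lower at 80 µg. At 12 h the T cell markers were higher at 80 µg (2053 to 2183 against 1789 to 1882) and the NK and CD8 markers lower (20.6 to 33.1 against 66.3 to 75.3). At 24 h the B cell markers (5.28 to 13.3 against 13.6 to 25.1) and the dendritic cell markers (0 to 0.16 against 0.97 to 2.66) were lower at 80 µg. The T cell markers did not move as one: at 4 h Cd4 (-1.93 on the log2 scale, 80 µg over 0.8 µg), Cd3g (-1.15), Lck (-1.09) and Cd3e (-1.02) were called lower, while Cd2 was at 0.72 and Trac at 0.33. At 12 h 0 of the 9 were called, with Trac at 0.72 and Cd4 at -0.54. The part of these shifts in the results below was not tested.

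Values below are normalized counts (raw counts divided by the library's DESeq2 size factor), and fold changes are shrunken log2 values from 1 DESeq2 model of all 21 libraries. A gene was called at a Benjamini-Hochberg adjusted p under 0.05 over all genes tested together with an absolute log2 fold change above 1. Adjusted p-values are those of DESeq2 unless another tool is named.

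The Nr4a genes were at their highest 4 h after immunization at both doses, and at 12 h and 24 h all 3 were at a fraction of that level. At 4 h, the means of Nr4a1 and Nr4a3 at the 2 doses lay within 1.08-fold of each other, while that of Nr4a2 was 1.80-fold higher in the 80 µg group. At 12 h, the cells that had received the high dose held 4.82-fold less Nr4a1 and 3.64-fold less Nr4a3 than those given the low dose. At 24 h the Nr4a3 difference was 5.96-fold. Nr4a2 was not called between doses at any of the 3 times.

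**Figure D1:**
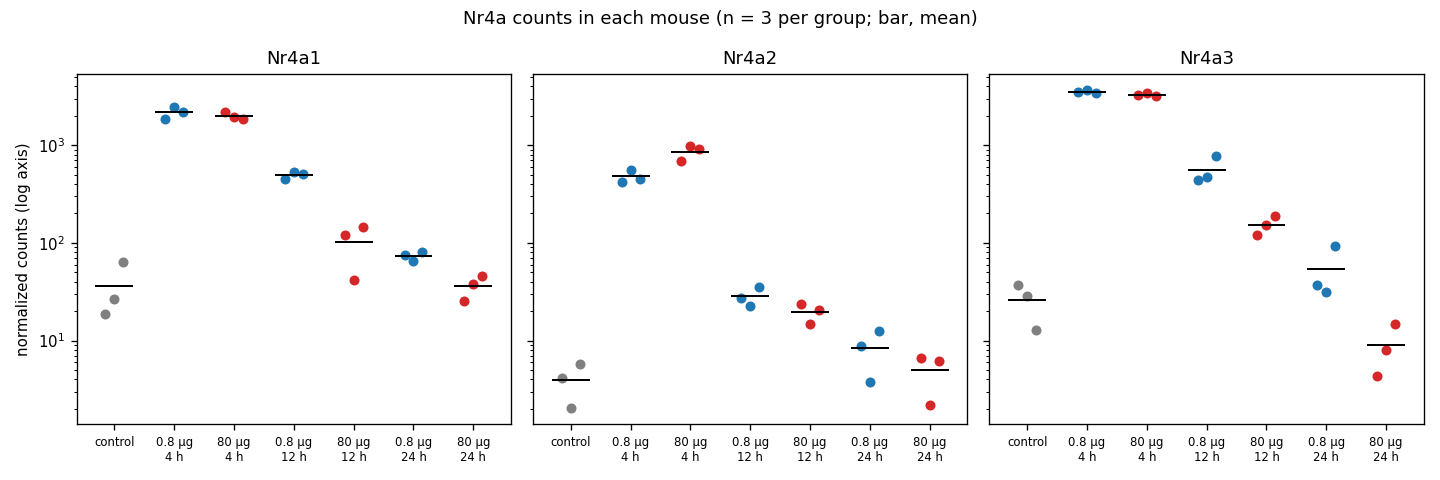
Normalized counts of Nr4a1, Nr4a2 and Nr4a3 (log axis) in each mouse of the 7 groups, where a point is a mouse and a bar the mean of 3. All 3 genes peak at 4 h, and at 12 h the Nr4a1 and Nr4a3 points of the 80 µg group (red) lie below all those of the 0.8 µg group (blue).

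Nr4a1, the best studied member and a widely used reporter of antigen receptor signaling, had 18.6, 26.4 and 64.2 normalized counts in the 3 controls. At 4 h it had 1877, 2466 and 2184 in the 0.8 µg mice and 2213, 1966 and 1846 in the 80 µg mice. The ranges of the 2 doses overlapped at that time, and every immunized mouse was far above every control. At 12 h it had 449, 535 and 503 at 0.8 µg against 122, 41.8 and 145 at 80 µg. No 80 µg mouse reached the lowest 0.8 µg mouse, and replicate 2 of the 80 µg group was low, at a level within the range of the controls. At 24 h it had 75.9, 65.3 and 81.6 at 0.8 µg and 25.2, 37.5 and 45.6 at 80 µg. The doses did not overlap here either, and the 80 µg mice lay within the control range while the 0.8 µg mice lay just above it.

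Nr4a2, known for its role in dopaminergic neurons and also induced in activated T cells, was close to the limit of detection in the controls, with 4.12, 2.03 and 5.71 normalized counts (4, 2 and 4 raw counts). At 4 h it had 422, 559 and 454 at 0.8 µg and 697, 982 and 905 at 80 µg. All 3 mice of the high dose were above all 3 of the low dose. At 12 h it had 27.4, 22.6 and 35.2 at 0.8 µg and 23.8, 14.7 and 20.4 at 80 µg, and the groups overlapped. At 24 h it had 8.76, 3.73 and 12.4 at 0.8 µg and 6.57, 2.21 and 6.16 at 80 µg. These last values rest on 3 to 12 raw counts per library and lie among those of the controls or little above them.

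Nr4a3, the member whose regulation drives the Timer reporter, had 37.1, 28.4 and 12.8 normalized counts in the controls. At 4 h it had 3510, 3649 and 3450 at 0.8 µg and 3260, 3408 and 3227 at 80 µg. The spread within a dose was small, and the groups did not overlap although their means differed by 1.07-fold. At 12 h it had 444, 472 and 769 at 0.8 µg against 121, 151 and 191 at 80 µg. The 769 is from replicate 3, in which Gm42418 took 25.7% of the counts, against 17.0% and 18.2% in replicates 1 and 2. That library was not left out on its own. At 24 h it had 37.0, 31.7 and 93.9 at 0.8 µg and 4.38, 8.10 and 14.8 at 80 µg. The high dose mice were below all low dose mice at both later times, and at 24 h 2 of the 3 were also below every control. Replicate 3 of the 0.8 µg group at 24 h was the highest of its group, and the 80 µg values at 24 h rest on 4, 11 and 24 raw counts.

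The order of the groups was the same for Nr4a1 and Nr4a3. From the highest mean it ran 0.8 µg at 4 h, 80 µg at 4 h, 0.8 µg at 12 h, 80 µg at 12 h, 0.8 µg at 24 h, control and 80 µg at 24 h. For Nr4a2 the doses changed places at 4 h, and the control was lowest. Among neighbors in this order, ranges overlapped for Nr4a1 between the doses at 4 h, between 80 µg at 12 h and 0.8 µg at 24 h, and between the control and 80 µg at 24 h. For Nr4a2 they overlapped between the doses at 12 h and among the 3 lowest groups. For Nr4a3 they overlapped between 0.8 µg at 24 h and the control, and between the control and 80 µg at 24 h.

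Each gene was also expressed relative to its own highest group (mean ± SD of 3 mice, as a percentage of that group's mean), which was 80 µg at 4 h for Nr4a2 and 0.8 µg at 4 h for the others. At 12 h after 0.8 µg, Nr4a1 was at 22.8% ± 1.99, Nr4a3 at 15.9% ± 5.10 and Nr4a2 at 3.30% ± 0.74. At 12 h after 80 µg, they were at 4.72% ± 2.48, 4.36% ± 0.99 and 2.28% ± 0.53. The mean of Nr4a2 was the lowest of the 3 at both doses, although at 80 µg it and Nr4a1 lay within their SDs, and Nr4a1 and Nr4a3 were at a larger share after the low dose than after the high dose. At 24 h, the shares were 3.41%, 1.53% and 0.96% for Nr4a1, Nr4a3 and Nr4a2 after 0.8 µg, and 1.66%, 0.26% and 0.58% after 80 µg.

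**Figure D2:**
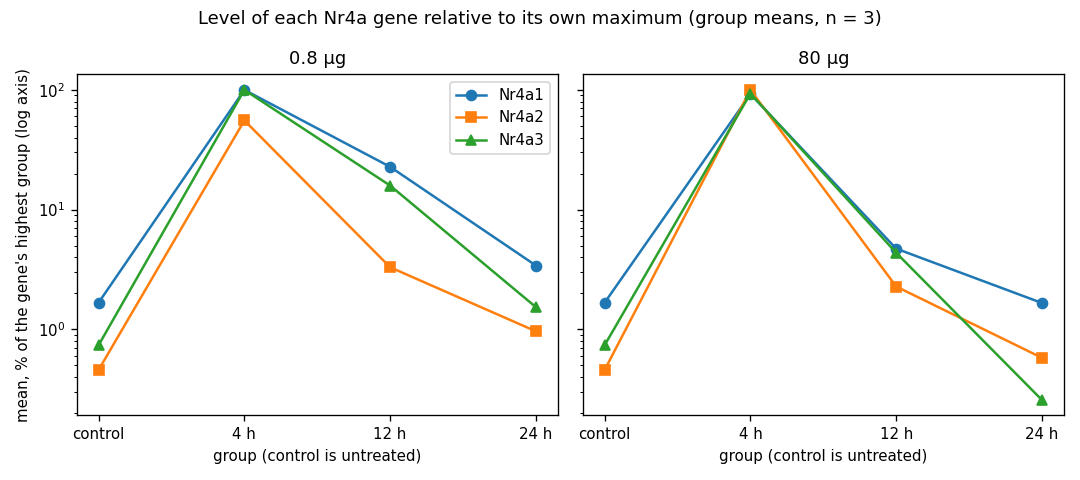
Mean level of each Nr4a gene as a percentage of the mean of its own highest group (log axis) in the controls and at 4 h, 12 h and 24 h, with the 0.8 µg groups on the left and the 80 µg groups on the right (n = 3 mice each). At 12 h, Nr4a2 lies at 3.30% and 2.28% at the 2 doses, while Nr4a1 goes from 22.8% to 4.72% and Nr4a3 from 15.9% to 4.36%.

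The dose comparison asked whether the strength of the antigen signal changed Nr4a transcripts in cells of the same Timer stage. At 4 h, 0 of the 3 members were called, where 5.55% of 11442 genes tested were called in either direction. The log2 fold change (80 µg over 0.8 µg) was -0.11 ± 0.37 (SE; adjusted p = 0.933) for Nr4a1 and -0.10 ± 0.36 (adjusted p = 0.943) for Nr4a3. The 95% intervals of the unshrunken values, -0.86 to 0.63 and -0.83 to 0.63, leave room for differences below 1 in either direction. For Nr4a2 it was 0.85 ± 0.18 with an adjusted p of 0.000101, which passed the p threshold, as 11.3% of genes did, but not the fold threshold. Its interval was 0.49 to 1.21. The groups did not overlap for Nr4a2 and Nr4a3, as for 27.9% of all genes at this time.

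At 12 h, 2 of the 3 members were called lower at 80 µg, where 0.926% of genes tested were called in that direction. Nr4a1 fell by 2.19 ± 0.38 on the log2 scale (adjusted p = 6.27e-07) and Nr4a3 fell by 1.80 ± 0.37 (adjusted p = 5.95e-05). Of 11442 genes tested, 30 had a more negative value than Nr4a1 and 65 than Nr4a3. Nr4a2 gave -0.51 ± 0.29 (adjusted p = 0.376), and its interval of -1.10 to 0.05 does not exclude a decrease. The groups did not overlap for 2 members, as for 18.8% of all genes. With the low replicate 2 of the 80 µg group left out, Nr4a1 still fell by 1.86, and with replicate 2 of every group left out the Nr4a3 value was -1.78 and no longer passed (adjusted p = 0.067). Fitted on the 6 libraries alone, the shrunken Nr4a1 value was -1.17 and remained called.

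At 24 h, 1 member was called lower, where 0.654% of 10848 genes tested were called in that direction. Nr4a3 fell by 2.31 ± 0.42 (adjusted p = 7.02e-06), and 13 genes had a more negative value. Without the high replicate 3 of the 0.8 µg group it fell by 1.74, and on the 6 libraries alone by 1.29, called in both cases. Nr4a1 gave -0.98 ± 0.39 (adjusted p = 0.145), just short of the fold threshold and above the p threshold, although its groups did not overlap. With counts thinned to the smallest library it was called (-1.47, adjusted p = 0.00104). The groups did not overlap for 2 members, as for 21.6% of all genes. Nr4a2 gave -0.68 ± 0.43 (adjusted p = 0.482), at counts of 12 or fewer. Over 12 alternatives its value ran from -0.77 to -0.21 and was never called.

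**Figure D3:**
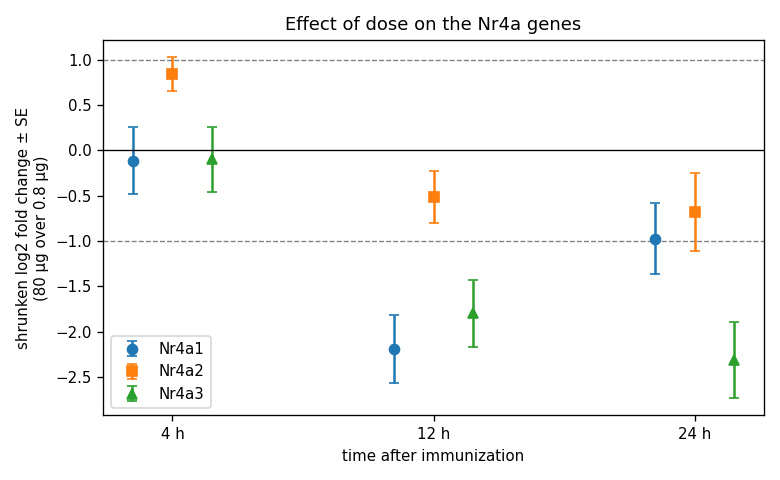
Shrunken log2 fold change of 80 µg over 0.8 µg with its standard error for Nr4a1 (circles), Nr4a2 (squares) and Nr4a3 (triangles) at 4 h, 12 h and 24 h, with dashed lines at the fold threshold. Nr4a2 is at 0.85 at 4 h, and Nr4a1 and Nr4a3 are at -2.19 and -1.80 at 12 h.

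The change of the dose effect with time was tested directly. In a likelihood ratio test on the 18 immunized libraries, the adjusted p was 0.000408 for Nr4a1, 0.00049 for Nr4a2 and 0.000748 for Nr4a3, so that all 3 members passed where 9.04% of genes did. Without replicate 1 the Nr4a1 and Nr4a3 values were 0.097 and 0.0765, without replicate 2 that of Nr4a3 was 0.134, and without replicate 3 that of Nr4a2 was 0.0855.

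The dose effect at 12 h was more negative than that at 4 h for all 3 members, a difference that passed in this direction for 3.46% of genes. It came to -2.16 ± 0.55 for Nr4a1 (DESeq2 Wald test on unshrunken values, adjusted p = 0.00238), -1.38 ± 0.35 for Nr4a2 (adjusted p = 0.00233) and -1.77 ± 0.53 for Nr4a3 (adjusted p = 0.0175). For Nr4a2 this is the step from a higher to a lower value at 80 µg. Leaving out 1 replicate number ended the call for Nr4a1 (replicate 1 or 2, adjusted p = 0.118 or 0.0616), for Nr4a2 (replicate 3, adjusted p = 0.11) and for Nr4a3 (replicate 1 or 2, adjusted p = 0.259 or 0.393). With counts thinned to the smallest library, the Nr4a3 value was -1.74 and did not pass (adjusted p = 0.0912). Without replicate 2 of the 80 µg group at 12 h alone, the Nr4a3 value was -1.75 (adjusted p = 0.0615).

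Between 24 h and 4 h, the dose effect differed by -1.59 ± 0.51 for Nr4a2 (adjusted p = 0.0294) and -2.40 ± 0.59 for Nr4a3 (adjusted p = 0.00158), where 3.14% of genes passed in this direction, and by -0.91 ± 0.56 for Nr4a1 (adjusted p = 0.439), which passed with thinned counts (-1.44, adjusted p = 0.0213). The Nr4a2 call rests on few counts and was lost when any of the 3 replicate numbers was left out and without replicate 3 of the 0.8 µg group at 24 h (-1.20, adjusted p = 0.24). It was also lost with thinned counts (-1.88, adjusted p = 0.135). The Nr4a3 call was lost without replicate 1 (adjusted p = 0.0518) or replicate 2 (adjusted p = 0.0894). Between 24 h and 12 h, no member passed in DESeq2, where 2.84% of genes did: the differences were 1.25 ± 0.57 for Nr4a1 (adjusted p = 0.284), -0.22 ± 0.56 for Nr4a2 and -0.64 ± 0.59 for Nr4a3. By edgeR, the Nr4a1 difference passed (1.32, adjusted p = 0.0392).

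The ratio of 2 members within a library was used to compare how dose changed them. The library's scaling cancels in it, apart from the pseudocount of 0.5 added to each normalized count, which weighs most where counts are low. The ratio compares counts, not numbers of transcripts, so that only its change between doses is read. At 4 h, log2 Nr4a2/Nr4a1 was -1.23 ± 0.38 (SD, n = 3) at 80 µg and -2.19 ± 0.07 at 0.8 µg, a difference of 0.95. At 12 h the difference was 1.92, with -2.20 ± 0.67 against -4.12 ± 0.37, and no mouse of the high dose overlapped the low dose at either time. At 24 h the difference was 0.40 and the doses overlapped. With 1 replicate number left out, it ran from 0.01 to 0.67. Nr4a2/Nr4a3 was higher at 80 µg at all 3 times without overlap, by 0.94 at 4 h, 1.31 at 12 h and 1.83 at 24 h. At 24 h that separation rests on few counts: the lowest 80 µg mouse (-1.67) had 3 raw counts of Nr4a2 and 11 of Nr4a3, and the highest 0.8 µg mouse (-2.02) had 9 and 38.

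Nr4a1/Nr4a3 did not separate the doses at 4 h, where the difference was -0.01, or at 12 h, where it was -0.60 and replicate 2 of the 80 µg group alone stood at -1.84. With replicate 2 of both dose groups left out, that 12 h difference was 0.11. At 24 h it was 2.04 ± 0.41 at 80 µg and 0.62 ± 0.71 at 0.8 µg, a difference of 1.43 without overlap. In exact two-sided permutation tests (20 relabellings), p was 0.1 for each of the 6 ratios without overlap, the smallest value that 3 against 3 mice allow, and 0.15 after adjustment over 9 tests, so that none could pass 0.05. The remaining 3 tests gave an exact p of 0.5 to 1.

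**Figure D4:**
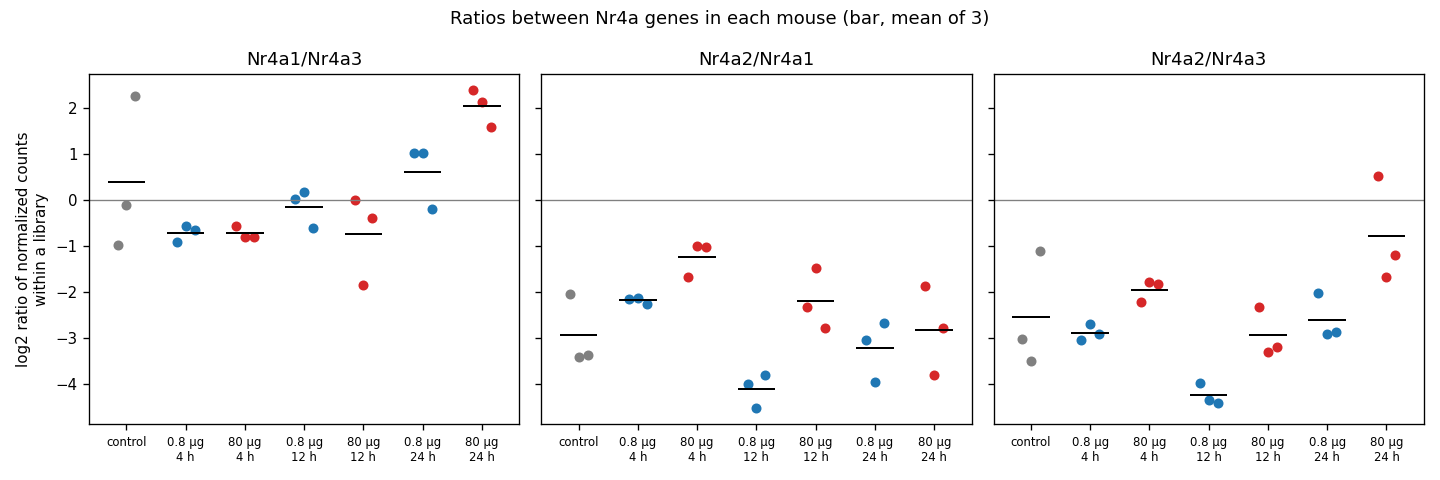
Log2 ratio of the normalized counts of 2 Nr4a genes within each library, by group, where a point is a mouse and a bar the mean of 3. In the Nr4a2/Nr4a3 panel the 80 µg points (red) lie above the 0.8 µg points (blue) at 4 h, 12 h and 24 h, by 0.94, 1.31 and 1.83 on average.

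The 6 comparisons with the untreated controls share those 3 control libraries, and they describe cells chosen through the Nr4a3 reporter, in which the summed T cell markers were also below those of every control at all 3 times. At 4 h after 0.8 µg, all 3 members were called higher (16.9% of genes tested were). The log2 fold changes were 5.69 ± 0.39 for Nr4a1 (adjusted p = 4.96e-46), 6.65 ± 0.42 for Nr4a2 (adjusted p = 1.78e-44) and 6.78 ± 0.39 for Nr4a3 (adjusted p = 2.31e-64). At 4 h after 80 µg all 3 were again called higher (18% of genes), at 5.58 ± 0.39, 7.49 ± 0.42 and 6.68 ± 0.39. In ratios of group means, Nr4a1 was 59.8-fold and 55.2-fold above the control at the low and high dose, Nr4a2 121-fold and 218-fold, and Nr4a3 135-fold and 126-fold. The Nr4a2 ratios rest on 10 raw counts in the 3 controls together. Replicate 3 of the controls was the highest for Nr4a1, and without it the Nr4a1 log2 fold changes were 6.33 and 6.21.

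At 12 h, all 3 members were called higher at 0.8 µg (16.8% of genes) and at 80 µg (17.4% of genes). After 0.8 µg the values were 3.63 ± 0.39 for Nr4a1, 2.59 ± 0.44 for Nr4a2 and 4.21 ± 0.39 for Nr4a3. After 80 µg they were 1.44 ± 0.40, 2.08 ± 0.45 and 2.41 ± 0.39, with adjusted p-values of 0.000745, 2.05e-05 and 5.39e-09. Nr4a1 overlapped the controls at 80 µg, and without replicate 1 it gave 0.96 and was not called (adjusted p = 0.121).

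At 24 h, 0 of 3 members were called at 0.8 µg, where 16.9% of genes were called in either direction. Nr4a1 gave 1.00 ± 0.40 (adjusted p = 0.0361), Nr4a2 0.91 ± 0.49 (adjusted p = 0.118) and Nr4a3 0.96 ± 0.40 (adjusted p = 0.0467). The Nr4a1 and Nr4a3 values are at the edge of the fold threshold, and several alternatives moved them past it. Without replicate 3 of the controls, the highest control for Nr4a1, that gene gave 1.58 (adjusted p = 0.000266). For Nr4a3 the value was 0.06 without the replicate number 3. That fit leaves out the highest 0.8 µg library (93.9 normalized counts) and also the lowest control (12.8), and their parts were not separated. At 80 µg, 1 member was called lower (7.7% of genes): Nr4a3 fell by 1.36 ± 0.44 (adjusted p = 0.00683), with ranges that overlapped the controls. That call was lost without replicate 1 (-0.78, adjusted p = 0.31) or replicate 2 (-1.10, adjusted p = 0.17). Nr4a1 gave 0.02 ± 0.41 (adjusted p = 0.966) and Nr4a2 0.23 ± 0.51 (adjusted p = 0.668). The ranges of members did not overlap the controls for 3, 3, 3, 2, 1 and 0 of 3 members at 0.8 µg and 80 µg in turn at 4 h, 12 h and 24 h, and for 60.8%, 62.8%, 58.4%, 59%, 47.5% and 49.9% of all genes.

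Between consecutive times, and so between gates, all 3 members were called lower in each of 4 steps. The share of genes called lower was 7.63% from 4 h to 12 h and 9.07% from 12 h to 24 h after 0.8 µg, and 8.89% and 10.3% after 80 µg. From 4 h to 12 h after 0.8 µg, Nr4a1 fell by 2.06 ± 0.37, Nr4a2 fell by 4.06 ± 0.24 and Nr4a3 fell by 2.57 ± 0.36. Over the same step after 80 µg, Nr4a1 fell by 4.14 ± 0.37, Nr4a2 fell by 5.42 ± 0.25 and Nr4a3 fell by 4.27 ± 0.36. As ratios of means, these are 4.39-fold, 16.8-fold and 6.30-fold at the low dose and 19.6-fold, 43.9-fold and 21.4-fold at the high dose.

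From 12 h to 24 h after 0.8 µg, Nr4a1 fell by 2.63 ± 0.38, Nr4a2 fell by 1.68 ± 0.35 and Nr4a3 fell by 3.25 ± 0.38. After 80 µg, Nr4a1 fell by 1.42 ± 0.39, Nr4a2 fell by 1.84 ± 0.38 and Nr4a3 fell by 3.76 ± 0.42. Nr4a1 was the exception to separated ranges in that last step, and without replicate 1 its value of -1.07 was not called (adjusted p = 0.0956). The groups of 3, 3, 3 and 2 members did not overlap in the 4 steps (low dose first), as for 46.7%, 50.6%, 51% and 52% of all genes.

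Genes related to the family by function were set beside it. Between doses, the share of all genes tested that was called higher and lower was 2.95% and 2.6% at 4 h, 1.8% and 0.926% at 12 h, and 0.802% and 0.654% at 24 h. Against the controls at 4 h it was 16.9% and 22.9% after 0.8 µg, and 18% and 24.5% after 80 µg. Immediate early genes, 20 in all, share the rapid and transient response. At 4 h, 14 were called higher and 2 lower than in the controls after 0.8 µg (median log2 fold change 1.93, against -0.13 over all genes tested) and 13 higher and 1 lower after 80 µg (median 1.99, against -0.16). From 4 h to 12 h, 16 of 20 were called lower at 0.8 µg and 17 of 20 at 80 µg, where 7.63% and 8.89% of all genes were. Between doses at 4 h, 3 of 19 with an adjusted p were called higher at 80 µg and 1 lower (median 0.37). Fosl2, an AP-1 subunit, rose by 1.75 ± 0.37 (adjusted p = 5.79e-05), and Junb, another, rose by 1.07 ± 0.16 (adjusted p = 6.83e-10). Egr1, a zinc finger factor induced through ERK, fell by 1.62 ± 0.23 (adjusted p = 1.73e-10).

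At 12 h, 1 immediate early gene was called higher and 1 lower. Egr2, a zinc finger factor linked to anergy, rose by 1.63 ± 0.35, from 17.8 ± 6.16 to 58.7 ± 14.3 normalized counts, while Egr1 fell by 1.51 ± 0.25. Egr2 was thus higher at the dose and time at which Nr4a1 and Nr4a3 were lower. At 24 h, 0 were called higher and 2 lower, Egr1 and Egr2 themselves.

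Of 23 genes of calcium, NFAT and MEF2 signaling, which act upstream of Nr4a transcription, 2 were called higher and 1 lower at 80 µg at 4 h, and 0 in either direction at 12 h and at 24 h. Their medians between doses were -0.06, -0.08 and 0.16 at 4 h, 12 h and 24 h. Crem, which encodes activators and repressors that bind CREs, rose by 2.91 ± 0.29 at 4 h (adjusted p = 2.71e-21), from 30.1 ± 9.51 to 233 ± 27.0 normalized counts. Elk1, a partner of serum response factor, rose by 1.28 ± 0.29. Hdac7, a class II deacetylase that MEF2 recruits to repress Nr4a1 in thymocytes, fell by 1.53 ± 0.12 (adjusted p = 6.74e-32), from 1910 ± 90.9 to 660 ± 103. At 12 h, Crem had 55.2 ± 12.3 normalized counts at 0.8 µg and 51.9 ± 3.59 at 80 µg.

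Of 45 other nuclear receptors listed, 22 had an adjusted p in the comparison with the controls at 4 h after 0.8 µg. Of these, 2 were called higher and 7 lower (median -0.26), and at 80 µg 4 were called higher and 8 lower (median -0.72), against medians of -0.13 and -0.16 over all genes tested. Between doses at 4 h, 2 of 19 were called higher and 2 lower. Rora, which encodes the receptor RORα, rose by 3.55 ± 0.50, and the retinoic acid receptor genes Rara and Rarg fell by 1.19 ± 0.28 and 2.07 ± 0.53. Rora stood at 111 ± 60.9 normalized counts at 0.8 µg and 1541 ± 129 at 80 µg. At 12 h, 2 were called higher, Rora among them at 2.59 ± 0.50, and 0 were called lower. At 24 h, 1 was called lower (Nr1d2, a circadian repressor) and 0 higher. Nuclear receptor coregulators, 19 genes that include the Ncoa coactivators and the Ncor corepressors, had 0 calls between doses at 4 h, 12 h and 24 h (medians -0.07, -0.18 and -0.12). For 19 genes, 0 calls is near the share of all genes called at each time.

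A further list held 24 genes that NR4A proteins have been linked with in tolerance and exhaustion. At 4 h, 8 of 20 were called higher at 80 µg and 2 lower, where 2.95% and 2.6% of all genes were (median 0.57, against -0.02 over all genes tested). The coinhibitory receptor gene Ctla4 rose by 5.93 ± 0.55, from 3.46 ± 2.15 to 344 ± 85.3 normalized counts. Ifng rose by 5.23 ± 0.76, with 0 to 7.07 normalized counts at 0.8 µg and a wide range of 52.3 to 772 at 80 µg. Dgka and Dgkz, diacylglycerol kinases that dampen receptor signaling, fell by 1.52 ± 0.22 and 1.32 ± 0.14. At 12 h, 3 were called higher and 3 lower (median 0.49). Ctla4 rose by 2.40 ± 0.46 and Il2 by 1.97 ± 0.38, while Ikzf2 (Helios) fell by 1.69 ± 0.20 and Tox, a factor of exhausted cells, fell by 1.33 ± 0.18. At 24 h, 0 were called higher and 2 lower, Tox and Ikzf2. The list thus held genes that went the opposite way to Nr4a1 and Nr4a3 at 12 h, such as Ctla4 and Il2, beside others that went the same way, such as Tox and Ikzf2.

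**Figure D5:**
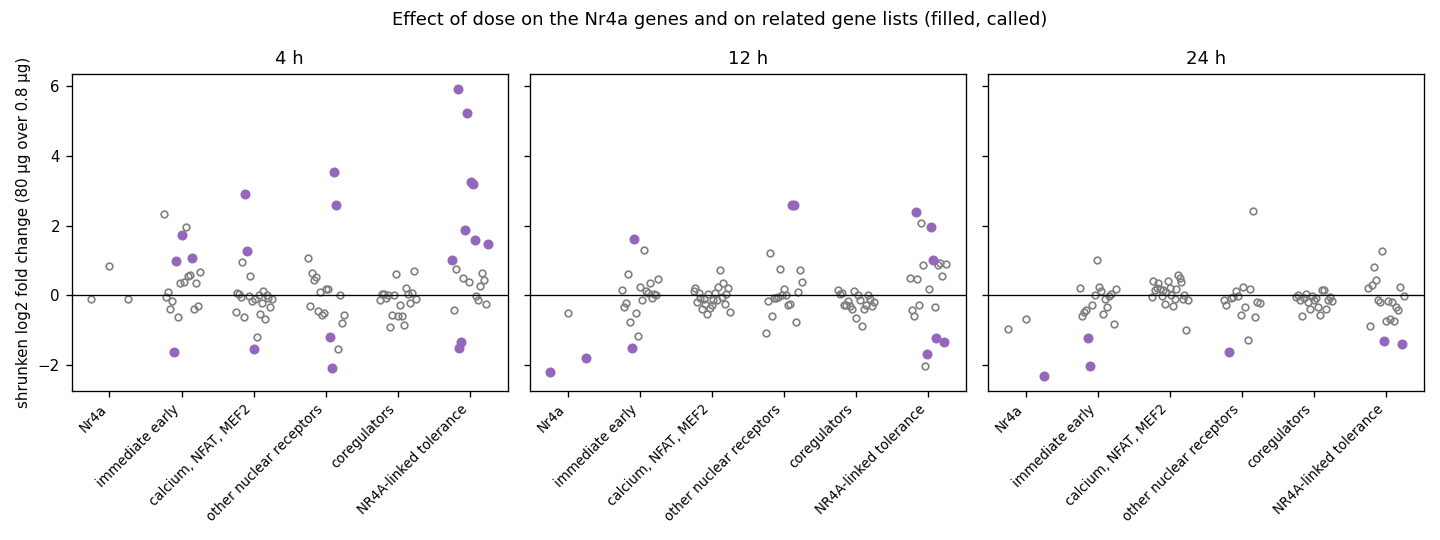
Shrunken log2 fold change of 80 µg over 0.8 µg for the 3 Nr4a genes and for the genes of 5 related lists that had an adjusted p, at 4 h, 12 h and 24 h; filled points are called and open points are not. At 12 h the 2 filled Nr4a points are at -2.19 and -1.80.

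The genes whose pattern over the groups was most like that of each member were found by Pearson's r over the 7 group means of the deposited log2 values, among 8752 genes with a mean of at least 20 normalized counts. The group means share the same libraries, and r is given as a description. For Nr4a1 they were Tnfsf14 (LIGHT, a TNF family ligand; r = 0.9953), Faim, an inhibitor of Fas-induced death, Dusp2, a phosphatase of MAP kinases, Uap1 and 9430038I01Rik (r = 0.9839). Nr4a3 followed in rank 6 (r = 0.9832), and Nr4a2 stood at rank 91 (r = 0.9540). Tnfsf14 was also called lower at 80 µg at 12 h, where it fell by 1.31 ± 0.29 (adjusted p = 0.000336), from 56.3 ± 8.12 to 22.8 ± 6.60 normalized counts.

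For Nr4a3 they were Trit1 (r = 0.9958), the growth kinase Mtor, Ppip5k2, the polarity gene Scrib and Dusp2 (r = 0.9913), with Nr4a1 at rank 28 and Nr4a2 at rank 330. For Nr4a2 they were Nkapd1 (r = 0.9958), the casein kinase gene Csnk1d, Gm43581, Gm44144 and Ndfip1, an adaptor of Nedd4-family ubiquitin ligases (r = 0.9906), with Nr4a1 at rank 178 and Nr4a3 at rank 224. Dusp2 was common to Nr4a1 and Nr4a3, and it stood at 2270 ± 730 and 2034 ± 464 normalized counts at 4 h, and at 931 ± 215 and 548 ± 62.0 at 12 h, at the low and high dose. Its dose effect at 12 h was -0.75 ± 0.23 (adjusted p = 0.0214), short of the fold threshold. Genes with a high r differed in the size of their change: Faim, second for Nr4a1, spanned 100 to 185 normalized counts over the groups, and Nr4a1 spanned 36.1 to 2176.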

How the data were processed

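RNA of sorted CD4+ T cells was measured in 21 libraries (3 mice in each of 7 groups, grouped by the labels). The authors deposited raw counts per gene, made with STAR 2.5.2a on GRCm38 (mm10) and HTSeq, after trimming. Strand setting, annotation release and molecular identifiers are not given in the sources used here. They also deposited log2 values, the regularized log (rlog) of DESeq2, for 15249 genes. For the members, the same transformation repeated on the counts came within 3.08e-12 of these. The replicates are separate mice, stained separately and sorted together.

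Genes with fewer than 10 counts in total were removed (15300 remained, all 3 members among them). DESeq2 1.42.0 (R 4.3.3) was fitted with a coefficient per group on all 21 libraries, with log2 fold changes shrunk by the normal prior, as in the study's methods. Differences between dose effects were Wald contrasts, and a likelihood ratio test compared dose × time with dose + time on 18 libraries. Ratios used a pseudocount of 0.5 and SciPy 1.17.1. The models were tested on simulated data (14712 genes, 50 changed at each size). At log2 changes of 1.5, 2, 3 and 4, the dose test at 12 h recovered 44%, 68%, 90% and 86% with 0 false calls, so that changes of the lower sizes can be missed. For the same comparison edgeR recovered 86%, 96%, 100% and 100% with 7. The likelihood ratio test recovered 70%, 90%, 100% and 100% with 13 false calls, and the 12 h minus 4 h difference 60%, 88%, 98% and 100% with 19. Alternatives used edgeR 4.0.16 and limma 3.58.1. Locations are from GENCODE vM21.

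The members and gene lists were chosen with earlier results of these data known. Named genes are the members, the 5 most alike per member, and up to 2 per direction, list and time among those called between doses at 4 h and 12 h. Others (Egr1 and Egr2, Tox, Ikzf2 and Nr1d2 at 24 h, and Crem at 12 h) were named after their values were seen. A gene that this rule would name is not reported here. Depth limits genes with few counts: 3 counts are 0.48 to 1.28 CPM.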

Additional observations from a re-analysis of the deposited data

Results flagged for a closer look

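The effect of dose on all 3 Nr4a genes differed between times, by a test of the difference itself that 9.04% of genes passed. The likelihood ratio test of DESeq2 on the 18 immunized libraries gave adjusted p-values of 0.000408 for Nr4a1, 0.00049 for Nr4a2 and 0.000748 for Nr4a3. Each of these calls was lost in at least 1 of the 3 fits that leave out a replicate number, with adjusted p-values of up to 0.097, 0.0855 and 0.134. The dose effect at 12 h minus that at 4 h was -2.16 for Nr4a1, -1.38 for Nr4a2 and -1.77 for Nr4a3 on the log2 scale, and each of these calls was lost in at least 1 of the same 3 fits too (adjusted p of up to 0.118, 0.11 and 0.393), that of Nr4a3 also with thinned counts (adjusted p = 0.0912). The dose effect at 24 h minus that at 4 h was -1.59 for Nr4a2 and -2.40 for Nr4a3. At 12 h minus 4 h, 3.46% of genes passed in this direction, and at 24 h minus 4 h 3.14% did. The Nr4a2 call was lost without any 1 of the 3 replicate numbers, with thinned counts and with the replicate block (adjusted p = 0.0821), and the Nr4a3 call without replicate 1 or 2. Every Nr4a1 and Nr4a3 value at 12 h was lower in the 3 mice of the high dose than in the 3 of the low dose. The doses did not overlap at 12 h for 18.8% of all genes tested. Time changed together with the sorting gate, and the part of the gate was not tested.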

How the results depend on the processing

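Of 624 recomputed values of the members and their ratios, 578 kept their direction and their side of the threshold, 24 lost and 11 gained a call, and 11 changed sign. Nr4a1 against the control at 24 h after 0.8 µg was called with edgeR (1.11), unshrunken values (1.06), limma (1.06) and the replicate block (1.02). It was also called without replicate number 3 (1.51) and without control replicate 3 (1.58, chosen after seeing the data). In the same comparison, Nr4a3 was called with unshrunken values (1.02) and without replicate number 1 (1.40). With counts thinned to the smallest library, Nr4a1 was called between doses at 24 h (-1.47) and in the 24 h minus 4 h difference (-1.44), the differences of Nr4a3 at 12 h minus 4 h (-1.74) and of Nr4a2 at 24 h minus 4 h (-1.88) were lost, and the values at 24 h after 80 µg against the control turned to -0.55 for Nr4a1 and -0.083 for Nr4a2 (-0.016 with limma). With edgeR, the Nr4a1 difference at 24 h minus 12 h passed (1.32). Without replicate 3 at 24 h after 0.8 µg, also chosen after seeing the data, the 24 h minus 12 h differences were 0.18 for Nr4a2 and 0.040 for Nr4a3, and that of Nr4a2 at 24 h minus 4 h was -1.20. The cause of these changes was not tested.

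Leaving out a replicate number, or 1 of the 3 libraries named above and in the report, gave the following ranges. Between doses, Nr4a1 at 4 h ran from -0.27 to 0.00067 and Nr4a3 at 12 h from -1.78 to -1.74. Against the control at 24 h after 0.8 µg, Nr4a1 ran from 0.64 to 1.58 and Nr4a3 from 0.061 to 1.40; at 80 µg Nr4a1 ran from 0.96 to 2.02 at 12 h and from -0.16 to 0.60 at 24 h, and Nr4a3 from -2.06 to -0.78 at 24 h. From 12 h to 24 h after 80 µg, Nr4a1 ran from -1.82 to -1.07. The 12 h minus 4 h difference ran from -2.55 to -1.78 for Nr4a1, -1.61 to -1.17 for Nr4a2 and -1.86 to -1.65 for Nr4a3. The 24 h minus 4 h difference ran from -1.76 to -1.20 for Nr4a2 and -2.60 to -1.72 for Nr4a3, and the 24 h minus 12 h difference from -0.41 to 0.18 for Nr4a2 and -0.74 to 0.040 for Nr4a3. The likelihood ratio adjusted p ran from 4.18e-15 to 0.097 for Nr4a1, 0.00189 to 0.0855 for Nr4a2 and 2.15e-20 to 0.134 for Nr4a3. The difference in log2 Nr4a1/Nr4a3 ran from -0.19 to 0.10 at 4 h and -1.01 to 0.11 at 12 h.

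Replicate numbers are shared by the groups, but 5 of 39 same-numbered pairs had correlated deviations over 0.1, so they were not taken as pairs. The replicate block moved the Nr4a2 difference at 24 h minus 4 h to -1.60, which no longer passed. Of the 5 genes most alike, 3, 3 and 3 remained for Nr4a1, Nr4a2 and Nr4a3 with log2(CPM + 1), and 2, 3 and 3 with a minimum mean of 100. On 6 libraries alone, 145 genes were called at 12 h and 83 at 24 h, in place of 312 and 158. Leaving out a replicate number lowered the calls to as few as 409 at 4 h (635 with all libraries), 169 at 12 h and 79 at 24 h, and those of the likelihood ratio test to 366 (1007). Calls in the differences of dose effects fell to as few as 245 (717), 347 (800) and 64 (258) at 12 h minus 4 h, 24 h minus 4 h and 24 h minus 12 h. Depth limits Nr4a2 in the controls and at 24 h, where libraries held 2 to 12 counts.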
